A study of Mus musculus with 2 samples.

Results

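The genes described here encode the proteases of the primary (azurophil) granule, together with myeloperoxidase and the enzyme that activates the proteases. They are Elane, Prtn3, Ctsg, Prss57, Mpo and Ctsc, chosen by symbol, and all 6 of them were found among the 24421 gene symbols measured. RNA was measured by bulk RNA-seq in granulocyte-monocyte progenitors (GMPs) purified by flow cytometry from BM of female F1 mice with H-2b/d background. One group was non-tumor-bearing (NTB-GMP), and the other (4T1-GMP) bore orthotopic mammary tumors grown from 4T1 cells, a carcinoma line of mouse. There was 1 library per group, and neither the number of mice behind a library nor their age is given in the labels. No difference below therefore has a replicate check, no p-value is given, and each interval covers counting error only. Reads are PCR products without molecular identifiers, and the intervals treat them as independent, so they may be too narrow even for counting error.

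Primary granules are the first granules that a developing neutrophil makes, at the promyelocyte stage, and GMPs already transcribe their contents at high levels. Neutrophil elastase (Elane), proteinase 3 (Prtn3), cathepsin G (Ctsg) and the serine protease NSP4 (Prss57) are made as inactive precursors. Cathepsin C (Ctsc), a lysosomal cysteine protease, trims a dipeptide from their N termini and so activates them. Myeloperoxidase (Mpo) is a heme enzyme that turns hydrogen peroxide and chloride into hypochlorous acid. Serglycin, a proteoglycan, holds the cationic proteases in the granule, and serpins of the cytosol inhibit those that leak from it.

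According to the GENCODE M21 annotation of GRCm38, the build called mm10 in the labels, 3 of the genes lie on chromosome 10. Prss57 spans 79781474 to 79790961 on the minus strand, Prtn3 spans 79874476 to 79883174 on the plus strand, and Elane spans 79886247 to 79888215 on the plus strand. Only 3073 bases separate the end of Prtn3 from the start of Elane. Ctsg lies on chromosome 14 (56099881 to 56102574, minus strand), Mpo on chromosome 11 (87793581 to 87804413, plus strand) and Ctsc on chromosome 7 (88278085 to 88310888, plus strand). RefSeq promoter windows on GRCm38.p6 were matched for 5 of the genes, all but Prss57. The 250 bases before the transcription start are shown for the adjacent pair Elane and Prtn3, for Ctsg, and for Mpo as the gene of highest level, with every match to GAGGAA, the core of the site bound by the myeloid factor PU.1, in capitals on either strand.
Elane promoter, chr10:79886062-79886311, plus strand: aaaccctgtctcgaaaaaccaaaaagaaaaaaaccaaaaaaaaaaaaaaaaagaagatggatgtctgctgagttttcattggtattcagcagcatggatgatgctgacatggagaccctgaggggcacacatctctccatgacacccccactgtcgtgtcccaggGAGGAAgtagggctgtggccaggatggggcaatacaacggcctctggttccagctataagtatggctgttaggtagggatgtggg
Prtn3 promoter, chr10:79879417-79879666, plus strand: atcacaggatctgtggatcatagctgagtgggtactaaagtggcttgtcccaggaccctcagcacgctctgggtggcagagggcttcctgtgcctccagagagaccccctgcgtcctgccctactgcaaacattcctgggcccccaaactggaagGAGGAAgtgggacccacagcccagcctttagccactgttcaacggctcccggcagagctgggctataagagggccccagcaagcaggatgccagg
Ctsg promoter, chr14:56102575-56102824, minus strand: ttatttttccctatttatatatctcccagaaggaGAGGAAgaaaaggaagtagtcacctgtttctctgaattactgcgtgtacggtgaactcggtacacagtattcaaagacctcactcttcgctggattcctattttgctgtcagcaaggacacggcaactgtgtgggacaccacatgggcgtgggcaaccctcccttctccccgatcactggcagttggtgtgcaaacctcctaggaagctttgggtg
Mpo promoter, chr11:87793534-87793783, plus strand: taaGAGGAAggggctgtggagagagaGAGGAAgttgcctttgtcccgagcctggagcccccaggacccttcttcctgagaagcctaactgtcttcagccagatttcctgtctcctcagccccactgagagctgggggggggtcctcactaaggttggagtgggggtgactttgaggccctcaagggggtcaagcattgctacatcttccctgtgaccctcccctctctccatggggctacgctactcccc
GAGGAA was present in the 250-base window of 5 of the 5 matched genes, against 23.2% of 32851 promoter windows of that length. It started 85 bases before the transcription start in Elane and 95 bases before it in Prtn3. The windows end at the RefSeq start, which for Elane, Prtn3 and Mpo lies downstream of the GENCODE gene start. In Ctsg GAGGAA started 216 bases before the transcription start, in Mpo 247 and 224 bases before it, and in Ctsc it was on the opposite strand. The MYB core, AACNG on either strand, was also in 5 of 5 windows, but in 74.2% of all windows. TTNNGNAA, for C/EBP factors, was in 0 of 5 windows (36.8% of all windows), TGTGGT, for RUNX factors, in Ctsg alone (14% of all windows), and AAATC, for GFI1, in Mpo alone (32.7% of all windows). The core promoter element TATAAA was in Ctsg alone (12.4% of all windows), on the opposite strand. Elane and Prtn3 both held CTATAAG, searched on the gene's strand only and after their sequences were seen, 32 and 33 bases before the start, as did 0.871% of all windows. These matches describe letters in the sequence, and factor binding was not measured.

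The deposited values were RPKM, reads scaled by the length of the gene and by the size of the library. Whole reads could be recovered from them for 14833 of the 14833 genes above 0. The library sizes behind the values came to 10180365 reads for NTB-GMP and 30016263 for 4T1-GMP, so the control was the shallower library. Ratios are 4T1-GMP over NTB-GMP on the log2(RPKM + 0.1) scale, compared with the 10378 genes whose mean RPKM was 1 or more, called tested genes. Their median log2 ratio was 0.05, with 54.7% above 0. The precursor of ribosomal RNA, Rn45s, held 18.2% of recovered reads in NTB-GMP but 7.95% in 4T1-GMP. Leaving its reads out of the library sizes lowered every log2 ratio, moving the median by -0.16, and 39.2% of tested genes were then above 0. At least 2-fold higher in 4T1-GMP were 3.25% of tested genes, and at least 2-fold lower were 4.92%. Of the marker genes of GMPs and early granulocytes, 11 of 11 were tested. Ms4a3, a GMP marker, was at 479 and 1220 RPKM and Fcnb at 12.9 and 72.2 RPKM in NTB-GMP and 4T1-GMP, whereas Cd34 was at 154 and 59.4 RPKM and Fcgr3, which encodes a receptor used to gate GMPs, at 53.1 and 28.6 RPKM. Fcgr2b, whose product the CD16/32 antibody also binds, was at 47.3 and 64.6 RPKM. In this list 7 of 11 genes were higher, 3 at least 2-fold higher and 1 at least 2-fold lower, with a median log2 ratio of 0.45.

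Among the genes of the primary granule, the serine proteases were higher in 4T1-GMP than in NTB-GMP, whereas Mpo and Ctsc were at nearly the same level in both. Prtn3 and Ctsg exceeded a 2-fold difference, and Elane and Prss57 were more than 1.5-fold higher. Mpo was 1.09-fold higher and Ctsc 0.992-fold. At least 2-fold higher were thus 2 of the 6 genes, with 0 of the 6 at least 2-fold lower. By a 1.5-fold rule added after seeing the data, 4 of the 6 genes were higher, against 9.8% of tested genes. Elane missed that rule under TPM scaling and with the reads of Rn45s left out, and Elane and Prss57 both missed it under quantile normalization. The median log2 ratio of the 6 genes was 0.71. Among the 565 genes whose mean RPKM was 100 or more, a group chosen after seeing the data, the median was 0.24, and 2.83% were at least 2-fold higher and 1.59% at least 2-fold lower.

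Prtn3, which encodes proteinase 3, was at 1399 RPKM in NTB-GMP (6909 reads) against 3311 in 4T1-GMP (48194 reads). Its level was 2.37-fold higher in 4T1-GMP (log2 ratio 1.24, 95% Clopper-Pearson interval on reads 1.21 to 1.28). Its RPKM was higher by 1911 in 4T1-GMP, and it moved from rank 23 to rank 7 in level. Ctsg, which encodes the chymotrypsin-like protease cathepsin G, was at 1388 RPKM in NTB-GMP (14161 reads) against 2998 in 4T1-GMP (90177 reads). This was a 2.16-fold difference (log2 ratio 1.11, interval 1.09 to 1.14), and the rank of Ctsg moved from 25 to 8. Without the reads of Rn45s the log2 ratio of Ctsg was 0.95, short of 2-fold, and that of Prtn3 was 1.08.

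Elane, which encodes neutrophil elastase, was at 1853 RPKM in NTB-GMP (17357 reads) against 2935 in 4T1-GMP (81057 reads). Its level was 1.58-fold higher in 4T1-GMP (log2 ratio 0.66, interval 0.64 to 0.69), and it held rank 9 in both libraries, so that quantile normalization, which keeps only ranks, gave a log2 ratio of 0. Prss57, which encodes a trypsin-like protease with arginine specificity, was far lower in level. It was at 62.3 RPKM in NTB-GMP (1708 reads) against 105 in 4T1-GMP (8498 reads), a 1.69-fold difference (log2 ratio 0.75, interval 0.68 to 0.83). The log2 ratio of Prtn3 was above that of 97.8% of tested genes, that of Ctsg above 97.3%, that of Prss57 above 94.4% and that of Elane above 92.5%.

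Mpo had the highest level of the 6 genes in both libraries, at 5163 RPKM in NTB-GMP (133808 reads) against 5625 in 4T1-GMP (429865 reads). Its log2 ratio was 0.12 (interval 0.11 to 0.13), above that of 57% of tested genes. Its direction depended on the scaling, because the log2 ratio was -0.04 when reads of Rn45s were left out of the library sizes. Mpo alone took 1.31% of the library size for NTB-GMP and 1.43% for 4T1-GMP. Ctsc was the lowest of the 6 genes, at 18.4 RPKM in NTB-GMP (464 reads) against 18.3 in 4T1-GMP (1357 reads). Its log2 ratio was -0.01, and the interval, -0.16 to 0.14, included 0, under the deposited scaling. The sign for Ctsc also depended on the scaling, with a log2 ratio of -0.17 when reads of Rn45s were left out, which lies outside that interval, and 0.074 with totals of recovered reads as library sizes. The read counts of Prtn3 and Ctsc are lower bounds, and their intervals would be narrower with more reads.

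**Figure D1:**
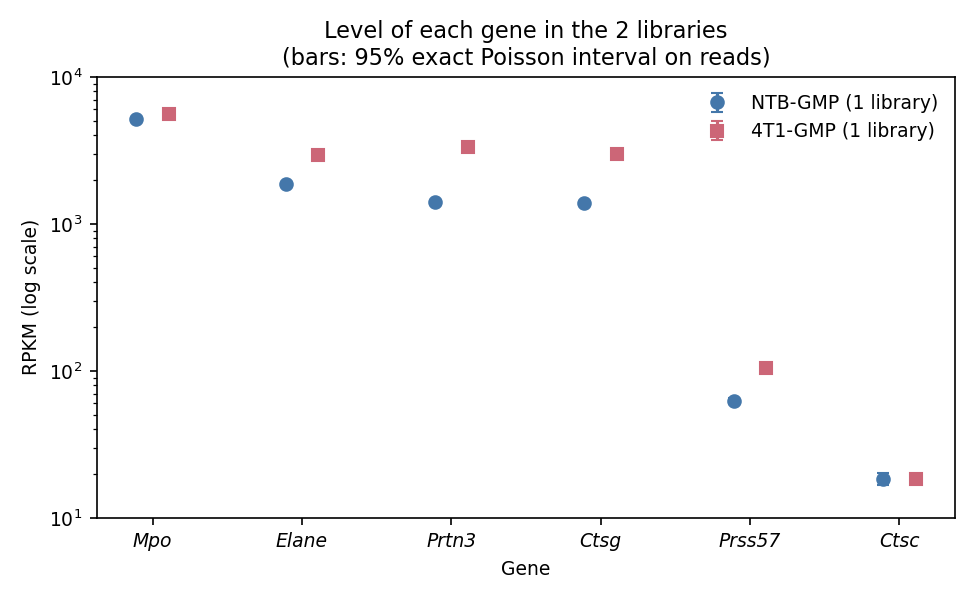
Level of each gene in RPKM on a log axis, with circles for the NTB-GMP library, squares for the 4T1-GMP library and bars for the 95% exact Poisson interval on reads. Prtn3, Ctsg and Elane stand between 1388 and 1853 RPKM in NTB-GMP and between 2935 and 3311 RPKM in 4T1-GMP, whereas the points of Mpo and of Ctsc lie side by side.

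**Figure D2:**
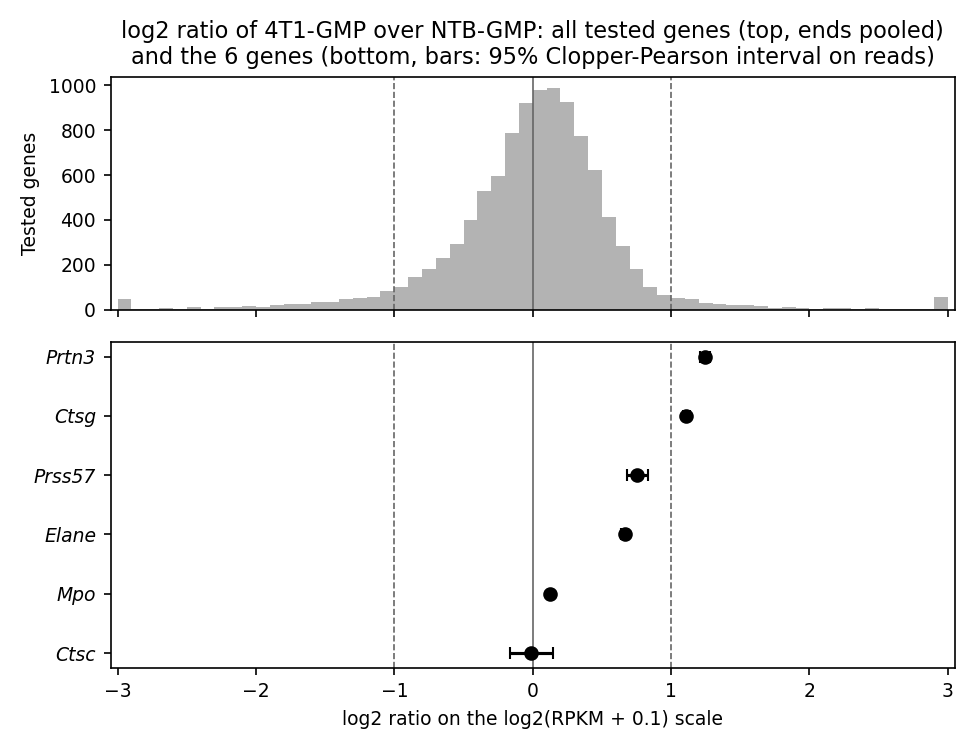
Log2 ratio of 4T1-GMP over NTB-GMP for all 10378 tested genes (histogram, values beyond the axis pooled in the end bins) and for the 6 genes (points with 95% Clopper-Pearson intervals on reads). Dashed lines mark 2-fold, which Prtn3 (1.24) and Ctsg (1.11) exceed, and Mpo (0.12) and Ctsc (-0.01) lie near 0.

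The order of levels per length differed between the libraries. In NTB-GMP the order was Mpo, Elane, Prtn3, Ctsg, Prss57 and Ctsc. Prtn3 and Ctsg were the neighbours that did not differ beyond counting error there, with exact Poisson intervals of 1366 to 1433 RPKM and 1365 to 1411 RPKM. In 4T1-GMP the order was Mpo, Prtn3, Ctsg, Elane, Prss57 and Ctsc. Elane thus stood below Prtn3 and Ctsg in 4T1-GMP and above them in NTB-GMP. The intervals of Ctsg (2979 to 3018 RPKM) and Elane (2915 to 2956 RPKM) in 4T1-GMP lay close together.

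The balance between members can be compared without regard to library size, because a common scaling cancels from a difference of log2 ratios. All 15 pairs of the 6 genes were compared, with 95% conditional exact intervals on the 4 read counts, and the interval excluded 0 in 14 of them. The exception was Mpo against Ctsc, with a difference of 0.14 (interval -0.02 to 0.29). The reads of Ctsc are lower bounds and more reads would narrow this interval, so whether it includes 0 is not settled. Prtn3 was higher relative to its neighbour Elane, since its level was 0.755 times that of Elane in NTB-GMP and 1.13 times that of Elane in 4T1-GMP, a difference of log2 ratios of 0.58 (interval 0.54 to 0.62). Ctsg was at 0.749 times the level of Elane in NTB-GMP and 1.02 times in 4T1-GMP (difference 0.45, interval 0.41 to 0.48). Prss57 and Elane differed little in log2 ratio (difference 0.09, interval 0.01 to 0.17), as did Prtn3 and Ctsg (difference 0.13, interval 0.09 to 0.18).

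Relative to Mpo, each serine protease was higher in 4T1-GMP, except Elane under quantile normalization, where its difference from Mpo was -0.075. The level of Prtn3 was 0.271 times that of Mpo in NTB-GMP and 0.589 times in 4T1-GMP (difference of log2 ratios 1.12, interval 1.08 to 1.16). For Ctsg the same values were 0.269 and 0.533 (difference 0.99, interval 0.96 to 1.01), and for Elane they were 0.359 and 0.522 (difference 0.54, interval 0.51 to 0.57). Elane, Prtn3 and Ctsg together summed to 4641 RPKM in NTB-GMP, below Mpo, and to 9244 RPKM in 4T1-GMP, above Mpo. The share of Mpo in the summed RPKM of the 6 genes was 52.2% in NTB-GMP and 37.5% in 4T1-GMP. Over the same libraries, the share of Prtn3 went from 14.2% to 22.1%, that of Ctsg from 14% to 20% and that of Elane from 18.7% to 19.6%. Under quantile normalization the share of Elane turned, from 22.3% in NTB-GMP to 17.2% in 4T1-GMP. All 6 genes summed to 9884 RPKM in NTB-GMP against 14992 in 4T1-GMP, or 2.38% and 3.42% of the RPKM of all genes. The longest stretch identical between annotated transcripts of different members was 17 bases, between Elane and Prtn3.

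**Figure D3:**
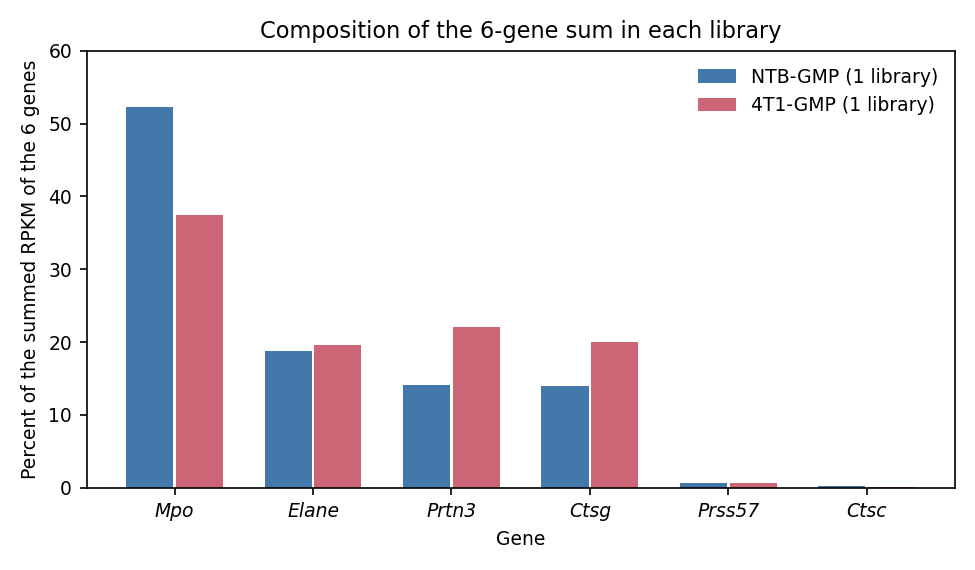
Share of each gene in the summed RPKM of the 6 genes, in percent, with 1 bar per library. Mpo takes 52.2% in NTB-GMP and 37.5% in 4T1-GMP, and the shares of Prtn3 and Ctsg are larger in 4T1-GMP.

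Tested genes next to the members stayed within 2-fold. Within 50000 bases of a member, 25 other genes had a value and 11 of them were tested, of which 0 reached a 2-fold difference in either direction. Ctsc had no neighbour with a value in this window, and Ctsg had only 1 tested neighbour. On chromosome 10, the log2 ratios of the 8 tested neighbours of Prss57, Prtn3 and Elane ran from -0.36 to 0.43. The lowest was that of E130317F20Rik, a noncoding RNA (1.45 and 1.1 RPKM), and the highest was that of Arid3a, which encodes a DNA-binding protein (15.4 and 20.9 RPKM). Ptbp1, a splicing regulator upstream of Prtn3, was at 157 RPKM in NTB-GMP against 181 in 4T1-GMP (log2 ratio 0.21). Of the other tested neighbours there, Rnf126 had a log2 ratio of 0.16, Polrmt and R3hdm4 both of -0.09, Palm of -0.15 and Med16 of -0.19. Fstl3, which overlaps Prss57 on the opposite strand, was at 0.604 and 0.938 RPKM, and without a stated strand setting reads from the shared stretch cannot be told apart. Cfd, the complement factor D gene that follows Elane and encodes a related serine protease, was at 0.318 and 0.467 RPKM and was not tested. Beside Mpo, Supt4a had a log2 ratio of 0.40 and Mks1 one of -0.12, and Lpo, which encodes the related lactoperoxidase, was listed at 0 in both libraries. The neighbour of Ctsg at a distance of 14608 bases is Mcpt8, which encodes a basophil protease of the same family. Mcpt8 was at 135 RPKM in NTB-GMP against 75.6 in 4T1-GMP (log2 ratio -0.84), opposite in direction to Ctsg.

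Of the serine proteases that mark other blood cells, those that were tested were lower in 4T1-GMP. This list held 19 genes, of which 4 were tested, and 3 of the 4 were at least 2-fold lower and 0 at least 2-fold higher, with a median log2 ratio of -1.64. Gzmb, a granzyme of cytotoxic cells, was at 17.3 RPKM in NTB-GMP against 1.91 in 4T1-GMP, 0.11 times as high. Cma1, a mast cell chymase, was at 2.28 and 0.557 RPKM (-1.86), and Prss34, a basophil protease, was at 121 and 45.3 RPKM (-1.42). Cma1 was below 1 RPKM in 4T1-GMP and was tested only through its level in NTB-GMP. The count of lower genes and the median of this list therefore depend in part on the filter. Listed at 0 in both libraries were 11 of the 19 genes, among them Mcpt4, Gzmd and Gzme beside Ctsg. Markers of basophils and mast cells, 3 of which are in this list too, summed to 588 RPKM in NTB-GMP against 266 in 4T1-GMP, with 5 of 8 tested genes at least 2-fold lower. Their part in these differences was not tested. In bulk samples, fewer cells of a type and less RNA per cell cannot be told apart.

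Most genes for other contents of the primary granule, many of them lysosomal hydrolases, differed less than the serine proteases under the deposited scaling. Of 20 such genes 19 were tested, 1 was at least 2-fold higher and 0 were at least 2-fold lower, with a median log2 ratio of 0.21. The gene at least 2-fold higher was Srgn, which encodes serglycin, at 856 RPKM in NTB-GMP against 1943 in 4T1-GMP (log2 ratio 1.18). Its log2 ratio was above those of Ctsg, Prss57 and Elane. The summed RPKM of Elane, Prtn3 and Ctsg was 5.42 times that of Srgn in NTB-GMP and 4.76 times that of Srgn in 4T1-GMP. Galns, a sulfatase, followed with a log2 ratio of 0.69 (18.2 and 29.4 RPKM), slightly above that of Elane. The lowest was Psap, the precursor of the saposins, at 106 and 77.5 RPKM (-0.45). The lysozyme genes Lyz2 (63.9 and 72.7 RPKM) and Lyz1 (5.82 and 6.93 RPKM) had log2 ratios of 0.18 and 0.25.

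Ctsc was compared with the other lysosomal cathepsins and peptidases, of which 12 of 15 were tested. Their median log2 ratio was 0.18, with 0 at least 2-fold higher and 2 at least 2-fold lower. Ctsh, an aminopeptidase, was at 12.3 RPKM in NTB-GMP (204 reads) and had 152 reads in 4T1-GMP (log2 ratio -1.95), and Ctsf was at 2.79 and 1.18 RPKM (-1.17). Ctsz and Ctsd, a carboxypeptidase and an aspartic protease, had log2 ratios of 0.62 and 0.59. The summed level of the 4 serine proteases was 255 times that of Ctsc in NTB-GMP and 511 times in 4T1-GMP. Cst7, which encodes cystatin F, an inhibitor of cathepsin C, was at 149 and 211 RPKM (log2 ratio 0.51, interval 0.42 to 0.59).

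Of the genes in a general list of protease inhibitors, not limited to those of the 6 genes, 11 of 22 were tested. Of these, 3 were at least 2-fold higher and 1 at least 2-fold lower (median log2 ratio 0.39). Serpinb1a, the cytosolic serpin that inhibits elastase, proteinase 3 and cathepsin G, was at 120 RPKM in NTB-GMP against 268 in 4T1-GMP (log2 ratio 1.16, interval 1.07 to 1.25). The summed RPKM of those proteases was 38.6 times that of Serpinb1a in NTB-GMP and 34.5 times in 4T1-GMP. Slpi, a secreted inhibitor of elastase and cathepsin G, was at 40.7 and 55.8 RPKM (0.45). Wfdc17 and Wfdc21, which encode small secreted proteins with the same kind of domain as Slpi, had the largest ratios, at 2.3 and 61.8 RPKM (log2 ratio 4.69) and at 14.1 and 139 RPKM (3.29). Serpinb6b was the gene at least 2-fold lower, at 1.96 and 0.735 RPKM (-1.30), and it was tested only through its level in NTB-GMP. The cystatin genes Cst3 (-0.16) and Cstb (0.22), Serpina3g (-0.25) and Spint2 (0.23) stayed within 2-fold.

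Myeloperoxidase needs chaperones and heme before it leaves the ER. Of the 12 genes listed for its folding, glycosylation and cleavage, 12 were tested and 12 were higher in 4T1-GMP, yet 0 reached 2-fold. Above 0 were 54.7% of tested genes and 80% of the 565 genes with a mean RPKM of 100 or more. The median log2 ratio of the list was 0.48, or 0.32 without the reads of Rn45s and 0.15 under quantile normalization. Calr, which encodes the chaperone calreticulin, was at 1522 RPKM in NTB-GMP against 2143 in 4T1-GMP (log2 ratio 0.49), and Mpo was at 3.39 and 2.62 times its level. Hspa5, the BiP chaperone, was at 453 and 776 RPKM (0.77) and Ero1l, an ER oxidase, at 31.5 and 54.7 RPKM (0.80). P4hb (0.61), Hsp90b1 (0.51), Uggt1 (0.49), Pdia3 (0.47) and Canx (0.23) followed. The smallest log2 ratios were those of Ganab (0.16), Prkcsh (0.14), Ero1lb (0.07) and Furin, a proprotein convertase (0.01), all of them no larger than the shift made by leaving out Rn45s.

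Of the genes of heme synthesis, 11 of 12 were tested and 9 were higher in 4T1-GMP, against 54.7% of all tested genes. In this list 0 reached 2-fold, and the median log2 ratio was 0.41. Alas1, the rate-limiting enzyme of heme synthesis outside the erythroid lineage, was at 231 RPKM in NTB-GMP against 342 in 4T1-GMP (log2 ratio 0.57). Slc25a38, a mitochondrial glycine carrier, had a log2 ratio of 0.73, and Ppox (-0.25) and Urod (-0.04) had the smallest. Genes of granule sorting and biogenesis were 20 of 20 tested, with 2 at least 2-fold higher, Srgn and Igf2r, and 0 at least 2-fold lower (median 0.29). Igf2r, a mannose 6-phosphate receptor, was at 1.23 and 5.66 RPKM (2.11). The smallest ratios were those of Vps13b (-0.37) and Gnptab (-0.23).

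Transcription factors that act on primary granule genes went both ways. Of the 14 listed, 14 were tested, 1 was at least 2-fold higher and 3 at least 2-fold lower, with a median log2 ratio of 0.14, which was -0.02 without the reads of Rn45s. Gfi1, a repressor required for granulocyte development, was at 45 RPKM in NTB-GMP against 82.7 in 4T1-GMP (log2 ratio 0.88), and Spi1, which encodes PU.1, was at 63.9 and 90.1 RPKM (0.50). Of the C/EBP genes, Cebpe was at 48.5 and 70.4 RPKM (0.54), Cebpb at 5.76 and 11.9 RPKM (1.04), Cebpd at 7.61 and 14.4 RPKM (0.91), and Cebpa at 45.6 and 35.5 RPKM (-0.36). Cebpb was the gene at least 2-fold higher, and its interval on reads, 0.72 to 1.39, reached below 2-fold. Myb was the most abundant factor of the list, at 360 and 335 RPKM (-0.11). Runx1, at 26.4 and 11 RPKM (-1.26), was at least 2-fold lower, whereas its partner Cbfb was at 59.3 and 56 RPKM (-0.08). Irf8, a factor of monocytes and dendritic cells, was at 32 and 4.45 RPKM (-2.82), and Gata1, an erythroid factor, at 4.23 and 0.806 RPKM (-2.26). Gata1 was tested only through its level in NTB-GMP. Ets1 (0.42), Ets2 (0.36) and Cux1 (-0.79) stayed within 2-fold.

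Genes of the secondary and gelatinase granules, which neutrophils make later than the primary granule, differed more than the 6 genes. Of 18 such genes 17 were tested, 14 were at least 2-fold higher and 17 were higher, with a median log2 ratio of 1.93. Each of them was below Elane, Prtn3 and Ctsg in level, though Hp, the haptoglobin gene, exceeded Prss57 in both libraries, and the 18 genes summed to 312 RPKM in NTB-GMP against 989 in 4T1-GMP. Mmp9 and Mmp8, metalloproteases of these granules, had the largest log2 ratios, at 0.588 and 15.6 RPKM (4.52) and at 0.521 and 14.1 RPKM (4.51). Ltb4r1 (0.27) and Chil3 (0.66) had the smallest. Mmp9, Mmp8, Olfm4 and Fpr1 were below 1 RPKM in NTB-GMP and were tested only through their level in 4T1-GMP. Markers of mature neutrophils, 6 of which are also in this list, were all higher. At least 2-fold higher were 12 of 12, with a sum of 493 RPKM in NTB-GMP against 3933 in 4T1-GMP, and 0 of them were at 0 in either library. Ly6g, a surface marker of neutrophils, was at 0.426 and 4.3 RPKM, and like Il1b, Mmp8 and Mmp9 it was tested only through its level in 4T1-GMP. Il1b had 1 read in NTB-GMP against 509 in 4T1-GMP, so its log2 ratio is set by the pseudocount and is bounded only by its interval, 4.95 to 12.7. Mmp9 (4.52) followed on the log2(RPKM + 0.1) scale, and Csf3r (1.09) and Camp (1.33) had the smallest log2 ratios. The part of mature neutrophils in the differences of the 6 genes was not tested.

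Most tested markers of monocytes, dendritic, stem and erythroid cells were lower in 4T1-GMP. Of the 10 tested monocyte and dendritic markers, 7 were at least 2-fold lower (sum of all 12 genes 226 and 85.4 RPKM), with H2-Aa (-3.52) and H2-Ab1 (-3.40) lowest and F13a1 (0.02) and Csf1r (-0.62) highest. Among the 7, Ly86 and Cx3cr1 were below 1 RPKM in 4T1-GMP and were tested only through their level in NTB-GMP. The count of 7 thus depends in part on the filter. Of the 5 tested stem and early progenitor markers, 2 were at least 2-fold lower (sum of all 10 genes 126 and 69.9 RPKM), with Gata2 (-2.50) and Meis1 (-1.83) lowest and Hoxa9 (0.06) and Cd48 (-0.47) highest. Of the 12 erythroid and megakaryocyte markers only 5 were tested, and 5 were at least 2-fold lower (sum of all 12 genes 33.6 and 9.49 RPKM). Klf1 (-2.42) and Gata1 (-2.26) were lowest and Itga2b (-1.51) and Gp9 (-1.60) highest. Klf1, Gata1 and Gp9 were below 1 RPKM in 4T1-GMP and were tested only through their level in NTB-GMP, so this count depends in part on the filter. The globin genes Hba-a1, Hbb-bt and Hbb-b1 were listed at 0 in both libraries. Among basophil and mast cell markers, Gzmb and Gata2 (-2.50) were lowest and Fcer1a (-0.39) and Hdc (-0.60) highest. Of the lymphoid markers only Nkg7 was tested, a gene also in the GMP list, at 190 and 337 RPKM (0.82). The part of these cells in the differences of the 6 genes was not tested.

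**Figure D4:**
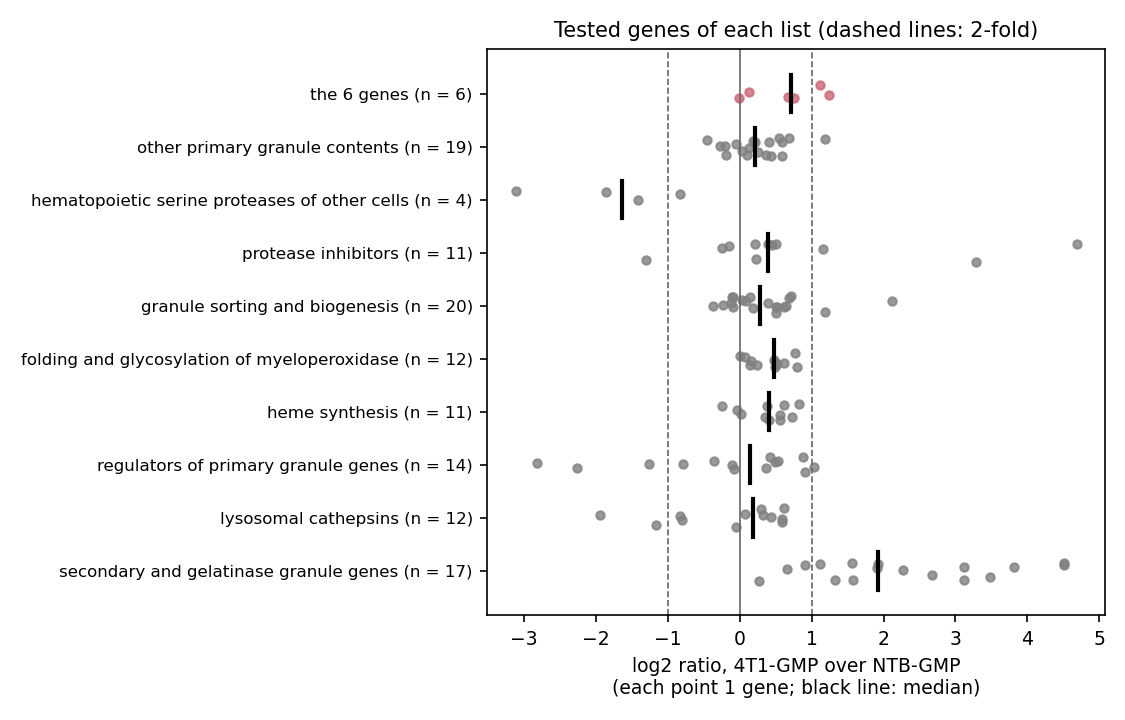
Log2 ratio of 4T1-GMP over NTB-GMP for each tested gene of the 6 genes and of 9 related lists, with 1 point per gene and a black line at the median. The median is 0.71 for the 6 genes, 0.21 for other primary granule contents, -1.64 for serine proteases of other cells and 1.93 for secondary and gelatinase granule genes.

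Over only 2 libraries, likeness of pattern is the distance between 2 pairs of log2(RPKM + 0.1) values, and it was searched among genes other than the 6 members. The non-member gene nearest to Mpo was Eef1a1, a translation elongation factor (5595 and 5490 RPKM, distance 0.12). The non-member nearest to Elane was Ppia, a peptidyl-prolyl isomerase (1638 and 2167 RPKM, distance 0.47). Calr was the nearest non-member to both Prtn3 (distance 0.64) and Ctsg (distance 0.50). The non-member nearest to Prss57 was Tomm5, of the mitochondrial import complex (63.6 and 105 RPKM, distance 0.03), and that nearest to Ctsc was Prr14 (18.4 RPKM in both, distance 0.01). This distance takes in level as well as ratio. The log2 ratios of Calr (0.49) and Ppia (0.40) were below those of Prtn3, Ctsg and Elane. That of Tomm5 (0.72) was close to that of Prss57 (0.75).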

How the data were processed

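GMPs were sorted from BM of NTB and 4T1-bearing mice, and 1 bulk RNA-seq library per group was analyzed. The authors deposited RPKM, 1 value per symbol and library. The submitters' processing notes name mm10, CASAVA 1.8.2, cutadapt 1.2.1, TopHat2 2.0.13, Picard 1.97, HTSeq 0.6.1 and edgeR 3.12.1; the annotation and strand setting are not given in the sources used here.

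Library sizes were recovered from RPKM ratios of genes with few reads and from GENCODE M21 transcript lengths, and whole reads from each gene's RPKM in both libraries (relative tolerance 1e-10). Neither library size was a whole number. Relative to the recovered totals (9486697 and 26353075 reads) they carried a scaling of 1.06, and a TMM factor computed from the recovered reads was also 1.06, so the deposited RPKM may include such a factor. Recovered reads are lower bounds by a common factor. An annotated transcript of the implied length was found for Elane, Ctsg, Mpo and Prss57, and not for Prtn3 and Ctsc. On data simulated from 14833 genes with 200 changed, the ratio of reads was exact for 100% of genes and both counts for 83%.

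No test was possible. A gene was called at a 2-fold difference among genes with mean RPKM of at least 1. A gene near 0 in 1 library can pass this filter through the other library alone, so counts past 2-fold in small lists depend in part on it. The named genes were the 6 members, the 2 largest and 2 smallest ratios of each list, the regulator, inhibitor and folding genes with mean RPKM of at least 5, the nearest gene in level and tested neighbours within 50000 bases. Lyz1, Lyz2, Cfd, Fstl3, Lpo, Ly6g, Fcgr2b, Hp, Ly86, Cx3cr1 and the genes at 0 were added after their values were seen. Some genes that the rule names are not reported here. The members and lists were chosen with earlier results of these data known. Promoters came from RefSeq (GRCm38.p6). Alternatives changed the pseudocount, the filter, the scaling and the fold. Python 3.11.15, numpy 2.4.6, pandas 2.3.3 and scipy 1.17.1 were used.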

Additional observations from a re-analysis of the deposited data

How the results depend on the processing

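The log2 ratios of Prtn3, Ctsg, Elane and Prss57 stayed above 0 in every alternative run except that of Elane under quantile normalization, which was 0 because Elane had rank 9 in both libraries. Library sizes without the reads of Rn45s gave 1.08 for Prtn3, 0.95 for Ctsg, 0.50 for Elane, 0.59 for Prss57, -0.040 for Mpo and -0.17 for Ctsc, and with the 6 genes left out as well the values were 1.08, 0.95, 0.50, 0.59, -0.036 and -0.17. This follows from a common shift of -0.16 in the median of all tested genes. Upper-quartile scaling gave 1.18 for Prtn3, 1.05 for Ctsg, 0.60 for Elane and 0.059 for Mpo, and RPKM rescaled to equal sums (TPM) gave 1.16, 1.03, 0.58 and 0.043, with 0.67 for Prss57. Quantile normalization gave 1.00 for Prtn3, 0.94 for Ctsg, 0 for Elane, 0.075 for Mpo and 0.52 for Prss57. Chosen after seeing the data were the totals of recovered reads as library sizes, with 1.33 for Prtn3, 1.197 for Ctsg, 0.75 for Elane, 0.21 for Mpo and 0.84 for Prss57, and the same totals without Rn45s, with 1.16, 1.03, 0.58, 0.039 and 0.67. The other 24 values stayed within the interval of the reads.

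Genes of the 6 past 2-fold were 2 as reported, 1 without Rn45s, 1 without Rn45s and the 6 genes, 1 under quantile normalization (each time Prtn3). By a 1.5-fold rule added after seeing the data they were 4, a count not kept under the scalings without Rn45s, TPM or quantile normalization. Differences between pairs were run under 2 alternatives, a pseudocount of 1, which hardly changes values at these levels, and quantile normalization. Of the 30 values 19 stayed within the interval, and all 11 that moved were under quantile normalization. Quantile normalization moved Prtn3 minus Ctsc to 1.07, Prtn3 minus Mpo to 0.93, Ctsg minus Mpo to 0.87, Prss57 minus Ctsc to 0.59, Elane minus Ctsc to 0.070, Prss57 minus Mpo to 0.45, Prtn3 minus Elane to 1.00, Ctsg minus Elane to 0.94, Prtn3 minus Ctsg to 0.060 and Prss57 minus Elane to 0.52. Elane minus Mpo turned to -0.075, and the share of Elane in the 6 genes turned, from 22.3% down to 17.2%.

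The share of tested genes at least 2-fold lower was 2.88% with a pseudocount of 1. With all genes above 0, the shares higher and lower were 4.95% and 8.4%, and with a mean RPKM of at least 5 they were 2.13% and 2.27%. With a mean of at least 100, 1.59% were lower. The 104 list medians moved by less than their interquartile ranges, which measure the spread of genes within a list and not the error of a median. The median of the folding list went from 0.48 to 0.15 under quantile normalization. Without the reads of Rn45s, that of other primary granule contents went from 0.21 to 0.043 and that of the regulators from 0.14 to -0.02. No replicate could be left out. No paired analysis was possible because neither group has more than 1 library. Depth limits Ctsc most, with 464 reads in NTB-GMP.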
